A study of Homo sapiens with 22 samples.

Results

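The expression of 10 retinoid genes was followed across 22 RNA-seq libraries of 2 human neuroblastoma cell lines. The genes were chosen by symbol from the 35237 genes of the deposited count table, and all 10 were found: the receptor genes RARA, RARB, RARG and RXRA, the binding-protein genes CRABP1 and CRABP2, and the enzyme genes ALDH1A3, DHRS3, CYP26A1 and CYP26B1. SK-N-AS and GIMEN are established lines that the labels call mesenchymal. The series compared untreated cells with cells treated with PP121, an inhibitor of tyrosine kinases and phosphoinositide kinases, and bufalin, a cardiac glycoside, to follow differentiation. Untreated SK-N-AS cells grew in DMEM with 10% fetal bovine serum (n = 4). In the first step they received 5 µM PP121 in DMEM with 1% serum for 4 days (S1D4, n = 4). In the second step S1D4 cells were moved to Neurobasal medium with B27 supplement and 0% serum, and received 5 µM PP121 and 100 nM bufalin. This second step lasted 4 days in the S2D4 group (n = 4) and 30 days in the S2D30 group (n = 4). Untreated GIMEN cells grew in RPMI with 10% serum (n = 3), and treated GIMEN cells received 2.5 µM PP121 and 10 nM bufalin in RPMI with 1% serum for 30 days (D30, n = 3). Drug and serum changed together in S1D4 and GIMEN D30. In the second SK-N-AS step drug, serum, basal medium and supplement changed together. The parts of these changes cannot be told apart. No group received retinoic acid according to the labels. Retinoid levels in the media, whose serum and supplement differed between groups, were not measured here.

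Retinoic acid is made inside cells from retinol. Retinol is oxidised to retinaldehyde, which DHRS3 reduces back to retinol and which retinaldehyde dehydrogenases such as ALDH1A3 oxidise irreversibly to retinoic acid. CRABP1 and CRABP2 carry retinoic acid in the cytosol: CRABP2 is known to hand it to nuclear receptors, and CRABP1 is mostly described as holding it back or passing it to degradation. The receptors encoded by RARA, RARB and RARG bind DNA as dimers with a retinoid X receptor such as RXRA, at direct repeats of a 6-base motif. CYP26A1 and CYP26B1 are cytochrome P450 enzymes that inactivate retinoic acid. RARB, CYP26A1 and DHRS3 are well-known genes that retinoic acid induces in many cells. Retinoic acid makes many neuroblastoma lines differentiate, and isotretinoin is given to patients with high-risk neuroblastoma.

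To show the element through which retinoic acid receptors are known to act on 2 of these genes, the promoters were searched for direct repeats spaced by 5 bases (DR5). Each repeat unit could be AGGTCA, the form usually given, or AGTTCA as in both genes shown, or GGGTCA, or else GGTTCA as in RARB. Both strands were searched in RefSeq windows of 300 bases around each start site (GRCh38.p14). All 10 genes had at least 1 window, 19 in all. Matches were found in RARB and CYP26A1 and in no window of the other 8 genes. Of all 35116 windows in the table, 31 held a match (0.0883%). The forms searched include those of RARB and CYP26A1, so these 2 matches were set by the choice of forms. They are no evidence that the 10 genes hold more matches than others. Direct repeats spaced by 2 bases occurred in 14 windows (0.0399%), none of them of these 10 genes. The 120 bases before each start site follow, on the gene's strand (plus in both), with the 2 repeat units in capitals.
RARB, chr3:25428143-25428262: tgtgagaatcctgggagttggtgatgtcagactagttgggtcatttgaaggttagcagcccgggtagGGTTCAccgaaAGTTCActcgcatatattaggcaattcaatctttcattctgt
CYP26A1, chr10:93073773-93073892: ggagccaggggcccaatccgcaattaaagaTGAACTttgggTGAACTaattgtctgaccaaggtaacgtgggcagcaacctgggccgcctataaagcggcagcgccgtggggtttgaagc
In RARB the repeat lay on the gene's strand and ended 36 bases before the start site. In CYP26A1 it lay on the opposite strand, where it reads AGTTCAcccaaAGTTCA, and ended 73 bases before the start site. These matches describe the letters of the windows, and binding was not measured.

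Library totals ran from 16456484 to 37506800 counts, which sets the precision for rare transcripts. Levels are given as CPM (counts scaled to a common library size) scaled within each line. One library stood apart: S2D4 replicate 4 correlated with the other S2D4 libraries at a mean of 0.9682 (Pearson r of log2 CPM across genes), while the other 3 had means of 0.9825 to 0.9829. In S1D4, replicates 1 and 2 differed from replicates 3 and 4, and of the untreated SK-N-AS libraries replicate 4 was furthest from the others. Of the marker genes, the summed level of 9 adrenergic neuroblastoma markers fell from between 1763 and 2006 CPM in untreated SK-N-AS to between 219 and 270 CPM in S2D30. The sum of 9 mesenchymal markers, of which VIM was the highest, was between 986 and 1587 CPM in untreated SK-N-AS, 2935 and 5150 CPM in S2D4, and 3405 and 4120 CPM in S2D30. Some markers went against these sums. From untreated SK-N-AS to S2D30, mean FN1 went from 63.7 to 1.95 CPM and TWIST1 from 114.7 to 88.0 CPM. The adrenergic marker TH averaged 0.285 CPM untreated, 29.8 in S1D4, 7.12 in S2D4 and 0.312 in S2D30. In GIMEN the mesenchymal sum was between 34460 and 36030 CPM untreated and between 18560 and 21080 CPM in D30. There FN1 made up most of it, and TH was at 0. No mesenchymal marker was at 0 in a group of either line. The leukocyte gene PTPRC averaged 187 CPM in untreated SK-N-AS, with CD3E at 0 in all 4 libraries, and 59.3, 24.5 and 0.877 CPM in S1D4, S2D4 and S2D30. The part of these shifts in the results was not tested, and in bulk RNA fewer cells of a type and less RNA per cell cannot be told apart.

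Of the 10 genes, 9 passed the filter on low counts in SK-N-AS and were tested with edgeR's quasi-likelihood test. CYP26A1 did not pass. At an adjusted p under 0.05, 2 genes were higher and 3 lower in S1D4 than in untreated cells, beside 17.6% and 22.4% of all 15810 genes tested (40.1% in either direction). In S2D4, 3 were higher and 5 lower, beside 30.9% and 32.2% of all genes (63.1%). In S2D30, 1 was higher and 5 lower, beside 33.8% and 36.5% (70.3%). The median log2 fold change of the 9 genes was 0.03, -0.98 and -1.39 in S1D4, S2D4 and S2D30, beside -0.01, -0.02 and -0.03 for all genes. These 3 comparisons share the same untreated libraries. Between the steps, 1 gene was higher and 6 lower in S2D4 than in S1D4, beside 28.3% and 26.8% of all genes (55.1% in either direction). From S2D4 to S2D30, 2 were higher and 4 lower, beside 24.4% and 26.9% (51.3%). The 2 groups compared had no overlap in CPM for 6 of the 9 genes in S1D4 against untreated cells (37.9% of all genes), for 6 in S2D4 (51.1%) and for 5 in S2D30 (66.5%). There was no overlap for 8 of the 9 genes between S1D4 and S2D4 (49.4%) and for 6 between S2D4 and S2D30 (50.3%).

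**Figure D1:**
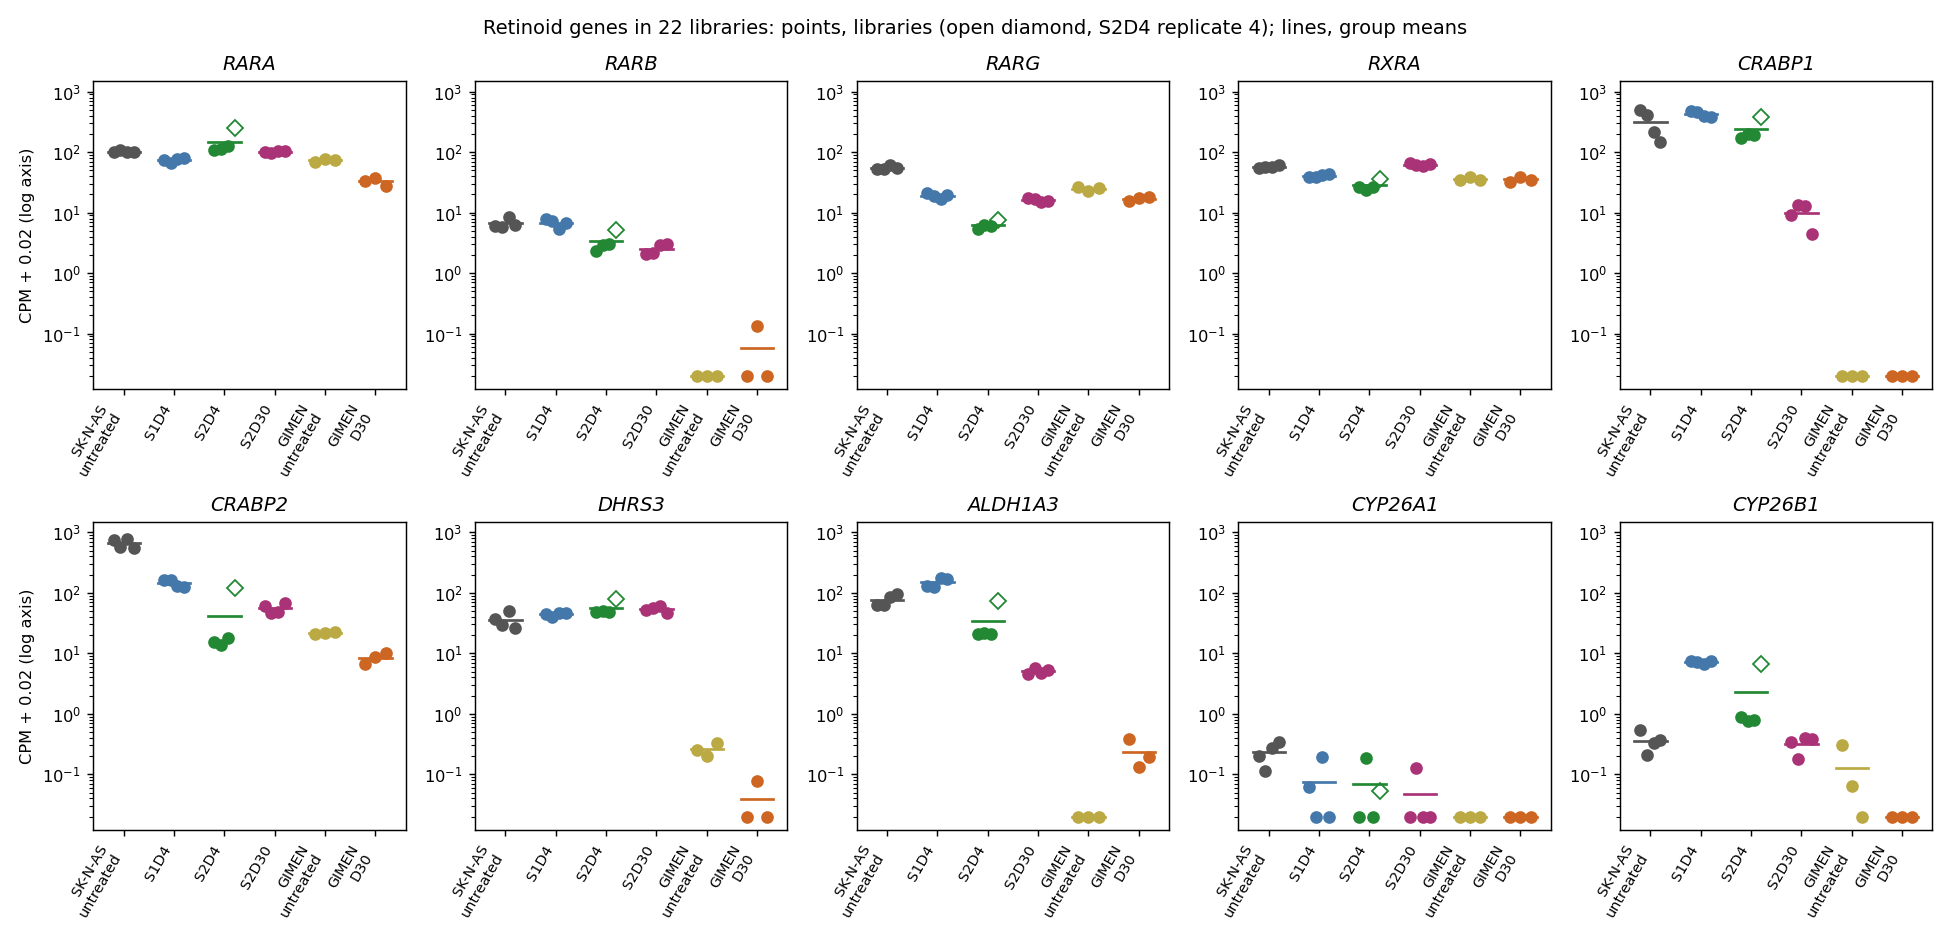
CPM plus 0.02 (log axis) of each of the 10 genes in each library, by group, with lines at the group means and S2D4 replicate 4 as an open diamond. CRABP2 and RARG fell in SK-N-AS, ALDH1A3 and CRABP1 were lowest in S2D30 among the SK-N-AS groups, CYP26B1 was high in S1D4, and CRABP1, ALDH1A3, DHRS3, CYP26B1, CYP26A1 and RARB were at or near 0 in GIMEN.

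RARG, the receptor subtype best known from skin and cartilage, fell at the first step and further at the second. Its level was 52.3, 53.1, 61.7 and 54.1 CPM in untreated SK-N-AS and 21.2, 18.6, 16.6 and 19.3 CPM in S1D4. In S2D4 it was 5.30, 6.34, 6.05 and 7.64 CPM, and in S2D30 it was 17.1, 16.8, 14.9 and 15.7 CPM. Each S2D4 library was below each library of the other 3 groups, and the S2D30 libraries lay between untreated and S2D4. The log2 fold change against untreated cells was -1.55 in S1D4 (SE 0.11, adjusted p = 5.14e-08), -3.12 in S2D4 (SE 0.12, adjusted p = 4.21e-12) and -1.78 in S2D30 (SE 0.11, adjusted p = 4.83e-10, edgeR). From S1D4 to S2D4 RARG changed by -1.57 (SE 0.12, adjusted p = 1.56e-08), and from S2D4 to S2D30 it rose by 1.34 (SE 0.12, adjusted p = 9.54e-08, edgeR). This fall and partial return kept their direction and call when each library was left out in turn.

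RARA, the receptor subtype expressed in most tissues, changed by less than 2-fold against untreated SK-N-AS in each treated group. Its level was 99.96, 107, 99.3 and 99.5 CPM in untreated SK-N-AS and 74.2, 65.7, 76.0 and 78.6 CPM in S1D4. In S2D4 it was 107.3, 111.5, 124.6 and 246.5 CPM, the last in the library that stood apart, and in S2D30 it was 100.8, 97.9, 102.7 and 104.1 CPM. All S1D4 libraries were below all untreated libraries, but the log2 fold change of -0.46 (SE 0.19) had an adjusted p of 0.0671 (edgeR). In a model of these groups alone the adjusted p was 0.00181. The S2D4 change was 0.54 (SE 0.19, adjusted p = 0.0211, edgeR), and without replicate 4 it was 0.17 (adjusted p = 0.0469). When the model held only these 2 groups the adjusted p was 0.076. In S2D30 the change was -0.00 (SE 0.19, adjusted p = 0.998, edgeR). From S1D4 to S2D4 RARA rose by 1.00 (SE 0.19, adjusted p = 0.000354), and by 0.64 without S2D4 replicate 4. From S2D4 to S2D30 it changed by -0.54 (SE 0.19, adjusted p = 0.0261, edgeR). That call was lost without S2D4 replicate 4 (-0.18, adjusted p = 0.0523) and without S2D30 replicate 1 (0.0536) or 2 (0.0582). In the GENCODE v29 annotation, genes on the opposite strand, RARA-AS1 among them, overlap 17.9% of the RARA exon bases.

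The ratio of RARA to RARG counts within a library does not depend on scaling, and shows the shift in the receptor transcripts directly. It ran from 1.61 to 2.01 in the untreated libraries, from 3.51 to 4.58 in S1D4, from 17.6 to 32.3 in S2D4 and from 5.81 to 6.89 in S2D30. No library of one SK-N-AS group had a ratio inside the range of another. The highest value, 32.3, was S2D4 replicate 4, and the other 3 S2D4 libraries had 20.2, 17.6 and 20.6. This ratio is of reads, not of reads per length, so it compares libraries and not the 2 genes.

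RARB, the subtype that retinoic acid induces most widely and whose promoter holds the repeat shown above, was low and fell in the second step. It was at 6.09, 5.83, 8.40 and 6.17 CPM in untreated SK-N-AS and at 7.76, 7.30, 5.27 and 6.64 CPM in S1D4, and these groups overlapped (log2 fold change 0.03, SE 0.23, adjusted p = 0.937, edgeR). S2D4 libraries had 2.27, 2.92, 2.98 and 5.10 CPM, all below the untreated ones, and S2D30 libraries had 2.04, 2.17, 2.85 and 3.01 CPM. RARB changed by a log2 fold of -0.98 in S2D4 (SE 0.23, adjusted p = 0.00157) and -1.39 in S2D30 (SE 0.24, adjusted p = 6.43e-05, edgeR). RARB was also lower in S2D4 than in S1D4 (-1.01, SE 0.23, adjusted p = 0.00164, edgeR). From S2D4 to S2D30 the change of -0.41 (SE 0.24) was not called (adjusted p = 0.172, edgeR).

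RXRA, the common dimer partner, followed a dip and a return. Its level was 53.8 to 60.5 CPM in untreated cells, 38.5 to 43.4 CPM in S1D4, 23.4 to 36.0 CPM in S2D4 and 59.7 to 65.1 CPM in S2D30. The S1D4 and S2D4 libraries were below all untreated libraries, while S2D30 overlapped them. RXRA changed by a log2 fold of -0.48 in S1D4 (SE 0.10, adjusted p = 0.00155), -1.01 in S2D4 (SE 0.11, adjusted p = 3.97e-07) and 0.13 in S2D30 (SE 0.10, adjusted p = 0.292, edgeR). From S1D4 to S2D4 RXRA changed by -0.53 (SE 0.11, adjusted p = 0.000492), and from S2D4 to S2D30 it rose by 1.14 (SE 0.11, adjusted p = 2.22e-07, edgeR). RARG and RXRA were the 2 genes of the 9 called higher in S2D30 than in S2D4 with all libraries kept. RARG stayed below its untreated level at day 30.

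**Figure D2:**
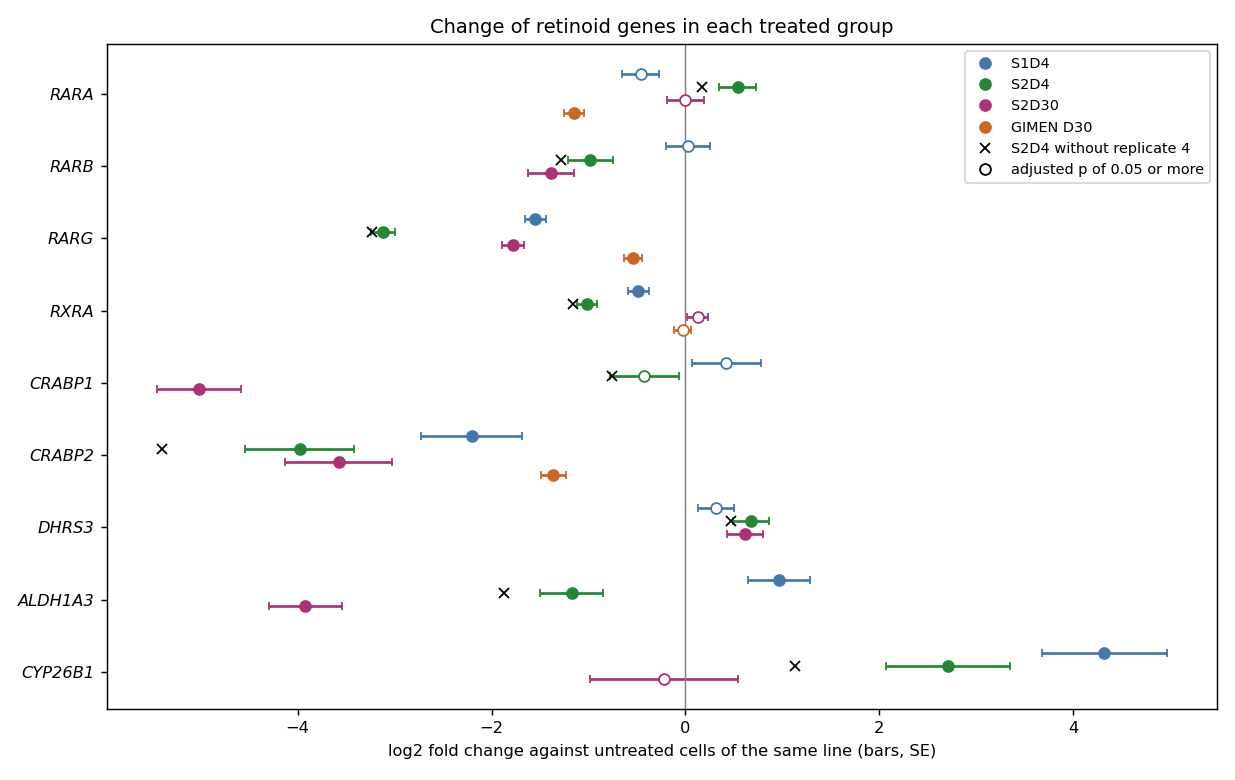
Log2 fold change against untreated cells of the same line (x axis, bars are SE) for the genes tested, filled where the adjusted p was under 0.05, with S2D4 values without replicate 4 as crosses. RARG and CRABP2 lie left of 0 in all 4 comparisons, CYP26B1 lies at 4.32 in S1D4 and -0.22 in S2D30, and CRABP1 lies near -5.02 in S2D30.

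Both binding-protein genes were lower in S2D30 than in untreated SK-N-AS, and CRABP2 was already lower in S1D4. It was at 756, 574, 776 and 551 CPM in untreated cells and at 162, 161, 129 and 125 CPM in S1D4, with a log2 fold change of -2.20 (SE 0.52, adjusted p = 0.00291, edgeR). S2D4 libraries had 15.4, 13.9, 17.7 and 120 CPM (120.1 in replicate 4), and S2D30 libraries had 59.5, 47.2, 47.8 and 68.3 CPM. All treated libraries were below all untreated ones. Against untreated cells CRABP2 changed by -3.98 in S2D4 (SE 0.56, adjusted p = 1.15e-05) and -3.57 in S2D30 (SE 0.55, adjusted p = 2.09e-05, edgeR). Without S2D4 replicate 4 the S2D4 change was -5.40 (adjusted p = 7.06e-13). From S1D4 to S2D4 CRABP2 changed by -1.77 (SE 0.52, adjusted p = 0.0081), and by -3.20 without that library (adjusted p = 2.99e-10, edgeR). The change from S2D4 to S2D30 rests on that library: it was 0.40 with it (SE 0.51, adjusted p = 0.534) and 1.83 without it (adjusted p = 1.6e-07, edgeR).

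CRABP1 fell between days 4 and 30 of the second step. Untreated libraries varied, with 500.0 and 415 CPM in replicates 1 and 2 and 215 and 147 CPM in replicates 3 and 4. S1D4 libraries had 476, 453, 391 and 388 CPM, and S2D4 libraries 169, 203, 194 and 385 CPM. Both overlapped the untreated group, and neither change was called (log2 fold change 0.42, SE 0.36, adjusted p = 0.376, and -0.42, SE 0.36, adjusted p = 0.31, edgeR). In S2D30 CRABP1 was at 9.01, 13.5, 12.7 and 4.35 CPM, below every library of the other SK-N-AS groups. The log2 fold change was -5.02 against untreated cells (SE 0.43, adjusted p = 2.07e-08) and -4.59 against S2D4 (SE 0.42, adjusted p = 1.9e-07, edgeR). S2D4 against S1D4 gave -0.84 (SE 0.36, adjusted p = 0.0556), with every S2D4 library below every S1D4 library, and -1.18 without S2D4 replicate 4 (adjusted p = 0.00754, edgeR). It was also called with upper-quartile scaling and with these groups alone. A term for replicates 3 and 4 of untreated cells and S1D4 gave a call too. That term sets S2D4 against the S1D4 level of replicates 1 and 2, where CRABP1 was higher, so it is no separate evidence of the fall. In the GENCODE v29 annotation 47.2% of the CRABP1 exon bases overlap a gene on the opposite strand, AC011270.2, and whether counting used strand is not given, so reads of both cannot be told apart.

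The balance of the 2 binding-protein transcripts turned over along the protocol. The ratio of CRABP2 to CRABP1 counts was 1.51 and 1.38 in untreated replicates 1 and 2 and 3.61 and 3.75 in replicates 3 and 4. It was between 0.321 and 0.356 in all S1D4 libraries. In S2D4 it was 0.0911, 0.0685 and 0.0912 in replicates 1 to 3 and 0.312 in replicate 4, and in S2D30 it was 6.60, 3.50, 3.77 and 15.7. Thus reads of CRABP2 outnumbered those of CRABP1 in all untreated and all S2D30 libraries, and the reverse held in all S1D4 and S2D4 libraries.

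**Figure D3:**
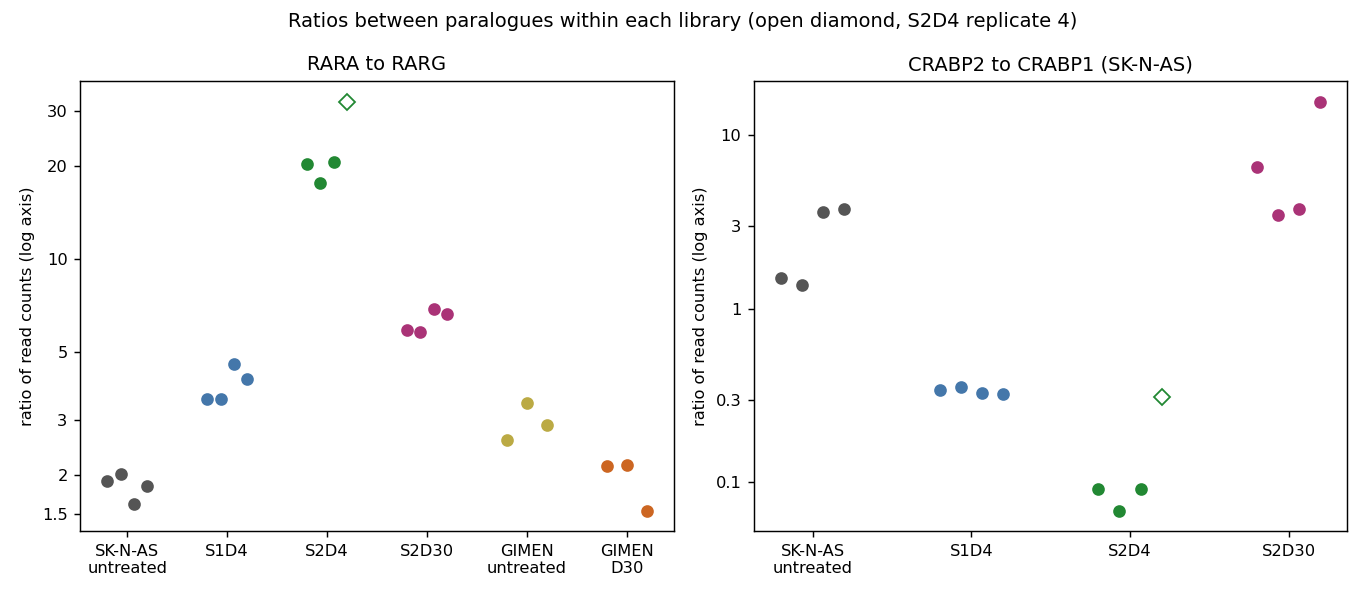
Ratio of RARA to RARG counts in each of the 22 libraries (left) and of CRABP2 to CRABP1 counts in each of the 16 SK-N-AS libraries (right), both on log axes, with S2D4 replicate 4 as an open diamond. The RARA to RARG ratio is highest in S2D4 (17.6 to 32.3), and the CRABP2 to CRABP1 ratio is below 1 in S1D4 and S2D4 and above 1 in the other SK-N-AS groups.

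Of the enzymes, ALDH1A3 rose at the first step and then fell. It was at 62.6, 63.1, 85.1 and 97.1 CPM in untreated SK-N-AS and at 132, 123, 179 and 167 CPM in S1D4, where each library was above each untreated one. In S2D4 it was at 20.6, 21.8, 20.6 and 72.5 CPM, the last again replicate 4, and in S2D30 at 4.53, 5.66, 4.76 and 5.34 CPM. The log2 fold change was 0.96 in S1D4 (SE 0.32, adjusted p = 0.0252, edgeR). That call was lost without untreated replicate 1 (adjusted p = 0.0648) or 2 (0.0704), or without S1D4 replicate 3 (0.0672) or 4 (0.0591). ALDH1A3 changed by -1.17 in S2D4 (SE 0.33, adjusted p = 0.00502) and by -3.92 in S2D30 (SE 0.38, adjusted p = 8.44e-08, edgeR). Without S2D4 replicate 4 the S2D4 change was -1.88 (adjusted p = 3.61e-08). From S1D4 to S2D4 it fell by 2.14 on the log2 scale (SE 0.34, adjusted p = 5.01e-05), and by 2.84 without that library. From S2D4 to S2D30 the change was -2.75 (SE 0.37, adjusted p = 1.09e-05), and -2.05 without that library. Opposite-strand AC015712.2 covers 27.5% of the ALDH1A3 exon bases, so here too reads of both genes may be mixed.

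DHRS3, the reductase that works against that step, was higher in S2D4 and S2D30. Its level was 36.7, 29.7, 50.2 and 26.1 CPM in untreated cells, 39.5 to 46.6 CPM in S1D4, 48.6 to 79.2 CPM in S2D4 and 47.1 to 60.8 CPM in S2D30. Untreated replicate 3, at 50.2 CPM, was above every S1D4 library and within the range of S2D4 and S2D30, and the other 3 untreated libraries lay below every treated library. For DHRS3 the log2 fold change was 0.32 in S1D4 (SE 0.19, adjusted p = 0.191), 0.67 in S2D4 (SE 0.19, adjusted p = 0.00471) and 0.61 in S2D30 (SE 0.19, adjusted p = 0.0076, edgeR). Without untreated replicate 3 the S1D4 change was 0.52 and was called (adjusted p = 0.0253). In S2D30, DHRS3 was the 1 gene of the 9 that was called higher than in untreated cells.

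CYP26B1, which breaks retinoic acid down, rose from very few reads at the first step. Untreated libraries had 20, 4, 6 and 11 counts, or 0.527, 0.187, 0.306 and 0.348 CPM. S1D4 libraries had 178, 149, 151 and 164 counts, or 7.43, 7.30, 6.63 and 7.57 CPM, so all 4 were over 10 times above the highest untreated library. S2D4 replicates 1 to 3 had 0.868, 0.729 and 0.781 CPM and replicate 4 had 6.77 CPM, within the range of S1D4. S2D30 libraries had 0.317, 0.159, 0.374 and 0.359 CPM and overlapped the untreated ones. For CYP26B1 the log2 fold change was 4.32 in S1D4 (SE 0.65, adjusted p = 6.75e-05), 2.71 in S2D4 (SE 0.64, adjusted p = 0.00145) and -0.22 in S2D30 (SE 0.77, adjusted p = 0.81, edgeR). Without S2D4 replicate 4 the S2D4 change was 1.14 (adjusted p = 0.00382). The fall from S1D4 to S2D4 was -1.61 with all libraries (SE 0.54, adjusted p = 0.0191) and -3.18 without replicate 4 (adjusted p = 4.74e-08). With replicate 4 kept it was not called when S2D4 replicate 1, 2 or 3 was left out (adjusted p = 0.0557, 0.0534 and 0.0548). From S2D4 to S2D30 CYP26B1 changed by -2.93 (SE 0.67, adjusted p = 0.00167), and by -1.36 without replicate 4 (adjusted p = 0.00199).

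CYP26A1, whose promoter holds the other repeat shown above, was barely detected. Untreated SK-N-AS libraries had 7, 2, 5 and 10 counts of it. S1D4 libraries had 1, 0, 4 and 0, those of S2D4 had 0, 3, 0 and 1, and those of S2D30 had 0, 2, 0 and 0. All 6 GIMEN libraries had 0 counts, which allows up to 0.134 to 0.173 CPM by the limit of 3 counts per library. This limit covers counting error only. AL358613.3, on the same strand, overlaps 25.2% of the CYP26A1 exon bases in the GENCODE v29 annotation. How counting treated reads shared by both genes is not given. CYP26A1 did not pass the filter, and with no filter it was called lower in S2D30 than in untreated SK-N-AS (log2 fold change -2.88, adjusted p = 0.0445) and lower in untreated GIMEN than in untreated SK-N-AS (adjusted p = 0.00771, edgeR), from these few reads. With DESeq2 the adjusted p was 0.0773 and 0.05.

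S2D4 replicate 4 was higher than the mean of the other S2D4 libraries for all 9 genes tested. The share of all genes that were higher in it was not counted, so this is not read as a result about the 9. CYP26B1 was 8.54 times and CRABP2 7.67 times that mean, ALDH1A3 3.46 times, RARA 2.15 times, CRABP1 2.04 times and RARB 1.88 times. DHRS3, RXRA and RARG were 1.61, 1.41 and 1.30 times the mean. Over all 13355 genes with a mean of at least 1 CPM in replicates 1 to 3, 12.4% differed more than 2-fold in that library, in either direction, and 4.4% more than 3-fold. CYP26B1, with a mean of 0.792 CPM in replicates 1 to 3, was not among them. Its CYP26B1 level lay within the range of S1D4, its ALDH1A3 level between S1D4 and the other S2D4 libraries, and its RARG level near its own group. The number of counts in that library was 34292076, the largest of S2D4, and the cause of its distance was not tested.

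**Figure D4:**
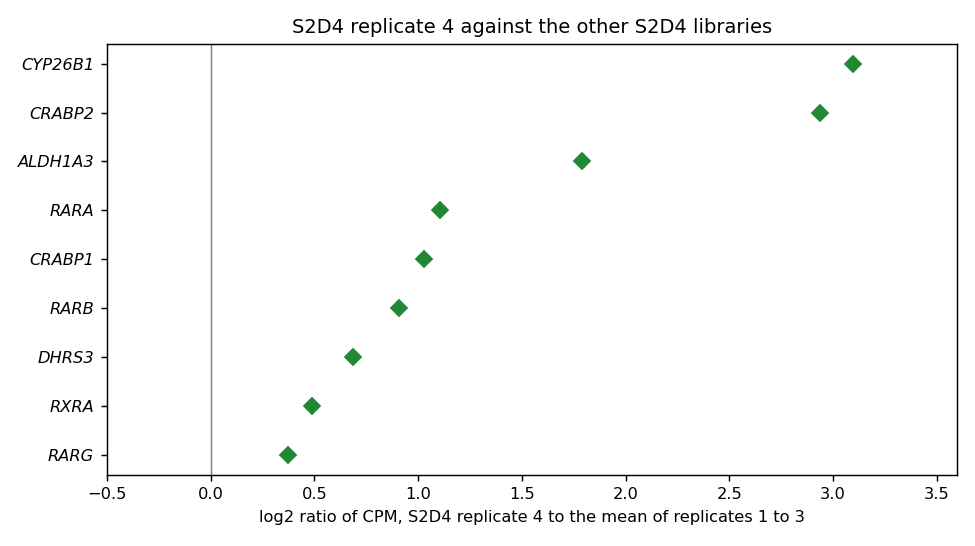
Log2 ratio of CPM in S2D4 replicate 4 to the mean of S2D4 replicates 1 to 3 for the 9 genes tested. All points are right of 0, from 0.37 for RARG to 3.09 for CYP26B1.

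In GIMEN only 4 of the 10 genes passed the filter, namely RARA, RARG, RXRA and CRABP2, and 3 of these were lower after 30 days, beside 36% of 13517 genes called lower, 35.5% called higher and 71.4% called in either direction. RARA was at 68.7, 76.8 and 73.8 CPM in untreated GIMEN and at 33.7, 37.6 and 27.3 CPM in D30 (log2 fold change -1.15, SE 0.10, adjusted p = 1.17e-06, edgeR). RARG was at 26.4, 22.4 and 25.5 CPM untreated and at 15.8, 17.5 and 17.8 CPM in D30 (-0.54, SE 0.09, adjusted p = 0.000294, edgeR). CRABP2 was at 21.2, 21.4 and 22.7 CPM untreated and at 6.76, 8.63 and 10.1 CPM in D30 (-1.36, SE 0.13, adjusted p = 2.33e-06, edgeR). For these 3 genes the groups did not overlap, as for 75.1% of all genes. RXRA was at 34.9, 38.9 and 34.2 CPM untreated and at 32.4, 38.9 and 34.7 CPM in D30, a change of -0.03 that turned positive under other settings (SE 0.09, adjusted p = 0.77, edgeR). The ratio of RARA to RARG counts was 2.60 to 3.42 untreated and 1.53 to 2.15 in D30, lower in each treated library.

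The other 6 genes were at or near 0 in GIMEN. CRABP1 had 0 counts in all 6 GIMEN libraries. RARB had 0 counts in the 3 untreated libraries and 0, 2 and 0 in D30. ALDH1A3 had 0 counts in the 3 untreated libraries and 7, 2 and 3 in D30. DHRS3 had 5, 4 and 6 counts untreated and 0, 1 and 0 in D30, and CYP26B1 had 6, 1 and 0 untreated and 0 in each D30 library. Of these, ALDH1A3 and DHRS3 passed the threshold when no filter on low counts was applied (adjusted p = 0.00814, higher in D30, and 0.0316, lower in D30, edgeR), from these few reads. With DESeq2 the adjusted p was 0.0255 for ALDH1A3 and 0.0595 for DHRS3.

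Untreated lines differed in all 8 of these genes that could be tested between them, each lower in GIMEN, beside 38.6% of 16246 genes called lower in GIMEN, 35.3% called higher and 73.9% called in either direction. Scaled within each line, CPM ranges of the 2 lines were separate for all 8. They were separate for 71.3% of all genes in the scaling shared by both lines, so these 2 figures are not the same measure. A gene absent from GIMEN passed the filter through SK-N-AS alone, so the count of 8 is not evidence about the list. Taking 3 counts per library as the limit for a gene at 0, untreated SK-N-AS had at least 1900-fold more CRABP1, at least 456-fold more ALDH1A3 and at least 39.3-fold more RARB than untreated GIMEN. DHRS3 differed by a log2 fold change of -6.96 (SE 0.32, adjusted p = 4.17e-12) and CRABP2 by -4.69 (SE 0.19, adjusted p = 6.75e-13, edgeR). RARG and RXRA differed by -0.92 (SE 0.09, adjusted p = 1.49e-07) and -0.42 (SE 0.08, adjusted p = 0.000167, edgeR). RARA differed by -0.23 in the scaling shared by both lines (SE 0.09, adjusted p = 0.0276, edgeR). That call was lost without untreated SK-N-AS replicate 2 (adjusted p = 0.0531) or untreated GIMEN replicate 1 (0.163) or 3 (0.0854). Line and basal medium cannot be told apart in this comparison.

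The 30-day change was compared between the lines with an interaction term, although dose, medium and serum differed too. Of 8 genes tested, 3 changed more positively and 2 more negatively in GIMEN, beside 25.2% and 24.5% of all genes (49.7% in either direction). CRABP1 was among the 8 but had 0 counts in all 6 GIMEN libraries, so its difference could not be estimated. CRABP1, RARB, DHRS3 and ALDH1A3 passed the filter through SK-N-AS alone, so these counts of genes are no evidence about the list. RARA fell in GIMEN, while its change in SK-N-AS was -0.00 (difference -1.14, SE 0.13, adjusted p = 1.62e-06, edgeR). RARG fell more in SK-N-AS (difference 1.25, SE 0.14, adjusted p = 1.02e-06), as did CRABP2 (difference 2.23, SE 0.24, adjusted p = 1.02e-06, edgeR). For RXRA the difference was -0.14 (SE 0.11, adjusted p = 0.339, edgeR). The called differences of DHRS3 and ALDH1A3 rest on the few GIMEN reads given above. So does that of RARB, which was not called (adjusted p = 0.0513) but was without GIMEN D30 replicate 1 (0.0296) or 3 (0.0329, edgeR). Without GIMEN D30 replicate 2, the library that held its 2 GIMEN counts, the RARB difference went from 4.48 to 1.37 and was not called.

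Per kilobase of exon, levels of different genes can be set side by side roughly, and the binding proteins were the most abundant in untreated SK-N-AS. Length here is that of all annotated exons of a gene joined, not of the transcript expressed. The overlaps with opposite-strand genes given above for CRABP1, ALDH1A3 and RARA, and with a same-strand gene for CYP26A1, limit this ranking too. CRABP2 was at 604 ± 107 CPM per kb (SD, n = 4) and CRABP1 at 322 ± 167. RARA followed at 21.4 ± 0.785, then ALDH1A3 at 13.3 ± 2.95, DHRS3 at 11.8 ± 3.51, RARG at 10.8 ± 0.840, RXRA at 5.16 ± 0.251 and RARB at 1.79 ± 0.323 CPM per kb. ALDH1A3, DHRS3 and RARG did not differ beyond their spread in that order. CYP26A1 and CYP26B1 were both near 0.07 CPM per kb (0.0714 ± 0.0322 and 0.0682 ± 0.0281). In S2D30 the order was CRABP2 at 50.7 ± 9.20, RARA at 21.4 ± 0.572, DHRS3 at 17.9 ± 1.92, CRABP1 at 9.96 ± 4.21, RXRA at 5.62 ± 0.211 and RARG at 3.15 ± 0.200 CPM per kb. In untreated GIMEN it was CRABP2 at 19.8 ± 0.755 (n = 3), RARA at 15.4 ± 0.867, RARG at 4.83 ± 0.405 and RXRA at 3.25 ± 0.226, with every other gene of the set under 0.1 CPM per kb. By this measure RARA was the most abundant receptor of the 4 in all 6 groups. In GIMEN D30 that rests on the length used, as mean CPM was 35.3 for RXRA and 32.9 for RARA.

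Other genes of the pathway were counted in a list of 34 (receptors, carriers, enzymes and receptor coregulators), of which 26 were tested in SK-N-AS and 18 in GIMEN. In S1D4, 3 were higher and 5 lower, beside 17.6% and 22.4% of all genes, with a median log2 fold change of 0.01. In S2D4, 9 were higher and 6 lower, beside 30.9% and 32.2% (median 0.22), and in S2D30, 10 were higher and 4 lower, beside 33.8% and 36.5% (median 0.23). In GIMEN D30, 9 were higher and 7 lower, beside 35.5% and 36% (median 0.12, and 0.02 for all genes). ALDH1A2, which makes retinoic acid in the embryo, went from between 1.54 and 3.10 CPM untreated to between 11.4 and 18.7 CPM in S1D4 (log2 fold change 2.75, SE 0.29, adjusted p = 2.25e-06) and was still higher in S2D4 (2.04, SE 0.28, adjusted p = 9.62e-06, edgeR). RDH10, the retinol dehydrogenase of the first oxidation step, went from between 9.81 and 16.1 CPM untreated to between 81.5 and 156 CPM in S2D4 (3.36, SE 0.21, adjusted p = 7.39e-10, edgeR). It rose by 1.23 in GIMEN D30 (SE 0.08, adjusted p = 8.78e-08, edgeR).

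FABP5, which can carry retinoic acid to another nuclear receptor, changed by -1.73 in S1D4 (SE 0.17, adjusted p = 1.5e-06) and by -2.40 in S2D30 (SE 0.18, adjusted p = 3.87e-09, edgeR). NRIP1, a ligand-dependent corepressor, rose by 1.20 in S1D4 (SE 0.16, adjusted p = 1.8e-05), and CYP1B1 rose by 2.25 in S2D30 (SE 0.36, adjusted p = 3.25e-05, edgeR). The alcohol dehydrogenase ADH5 changed by -0.50 in S1D4, DGAT1, which can esterify retinol, by -1.46 in S2D4, and in GIMEN RDH11 by 0.88 and RDH5 by -1.39, all at an adjusted p under 0.05. DHRS9 was at 0.0316 to 0.0527 CPM untreated and at 0.688 to 1.36 CPM in S2D30.

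A second list held 24 genes widely described as induced by retinoic acid in some cells. Its members were called in both directions, as were all genes. Of 19 tested in SK-N-AS, 5 were higher and 5 lower in S1D4, beside 17.6% and 22.4% of all genes (median log2 fold change 0.03). In S2D4, 7 were higher and 6 lower, beside 30.9% and 32.2% (median 0.04). In S2D30, 9 were higher and 9 lower, beside 33.8% and 36.5% (median -0.05). There 1 of the 19 was not called, while 70.3% of all genes were called in either direction. Of 14 tested in GIMEN, 4 were higher and 7 lower, beside 35.5% and 36% (median -0.20). BHLHE40, a transcription factor also induced by hypoxia and many other stimuli, went from between 4.02 and 7.93 CPM untreated to between 73.1 and 121 CPM in S2D4 (4.22, SE 0.22, adjusted p = 1.34e-10) and between 314 and 364 CPM in S2D30 (5.89, SE 0.24, adjusted p = 2.38e-12, edgeR). ICAM1, an adhesion molecule that NF-kB also induces, rose by 4.55 in S1D4, 4.18 in S2D30 and 3.37 in GIMEN D30. SOX9 rose by 3.39 in S2D4, HIC1 by 1.61 in S1D4 and GPRC5A by 2.67 in GIMEN D30.

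In the same list RET, a receptor tyrosine kinase of the sympathetic lineage, went from between 489 and 736 CPM untreated to between 21.8 and 31.4 CPM in S2D30 (log2 fold change -4.54, SE 0.50, adjusted p = 4e-07, edgeR). ZNF423, a cofactor of retinoic acid receptors in neuroblastoma, changed by -2.23 in S2D4 (SE 0.23, adjusted p = 2.67e-07) and by -4.38 in S2D30 (SE 0.26, adjusted p = 2.08e-10, edgeR). NEDD9, a scaffold of adhesion signalling, changed by -0.97 in S1D4, by -3.67 in S2D4 and by -2.65 in GIMEN D30. TGM2, a transglutaminase, rose by 0.86 in S2D4 (SE 0.21, adjusted p = 0.0021) and by 2.27 in S2D30 (SE 0.22, adjusted p = 8.96e-08, edgeR). It changed by -2.24 in GIMEN D30 (SE 0.08, adjusted p = 1.13e-09) and by -0.69 in S1D4 (SE 0.21, adjusted p = 0.0159, edgeR), a call that was lost without untreated replicate 1 or 2 or S1D4 replicate 3 (adjusted p = 0.0853, 0.054 and 0.0508). Opposite directions were also called for other genes named here from both lists: in GIMEN D30 BHLHE40 changed by -0.25, HIC1 by -1.27, NRIP1 by -0.62 and DGAT1 by 0.65, and in S2D4 RDH5 changed by 1.52 (edgeR).

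**Figure D5:**
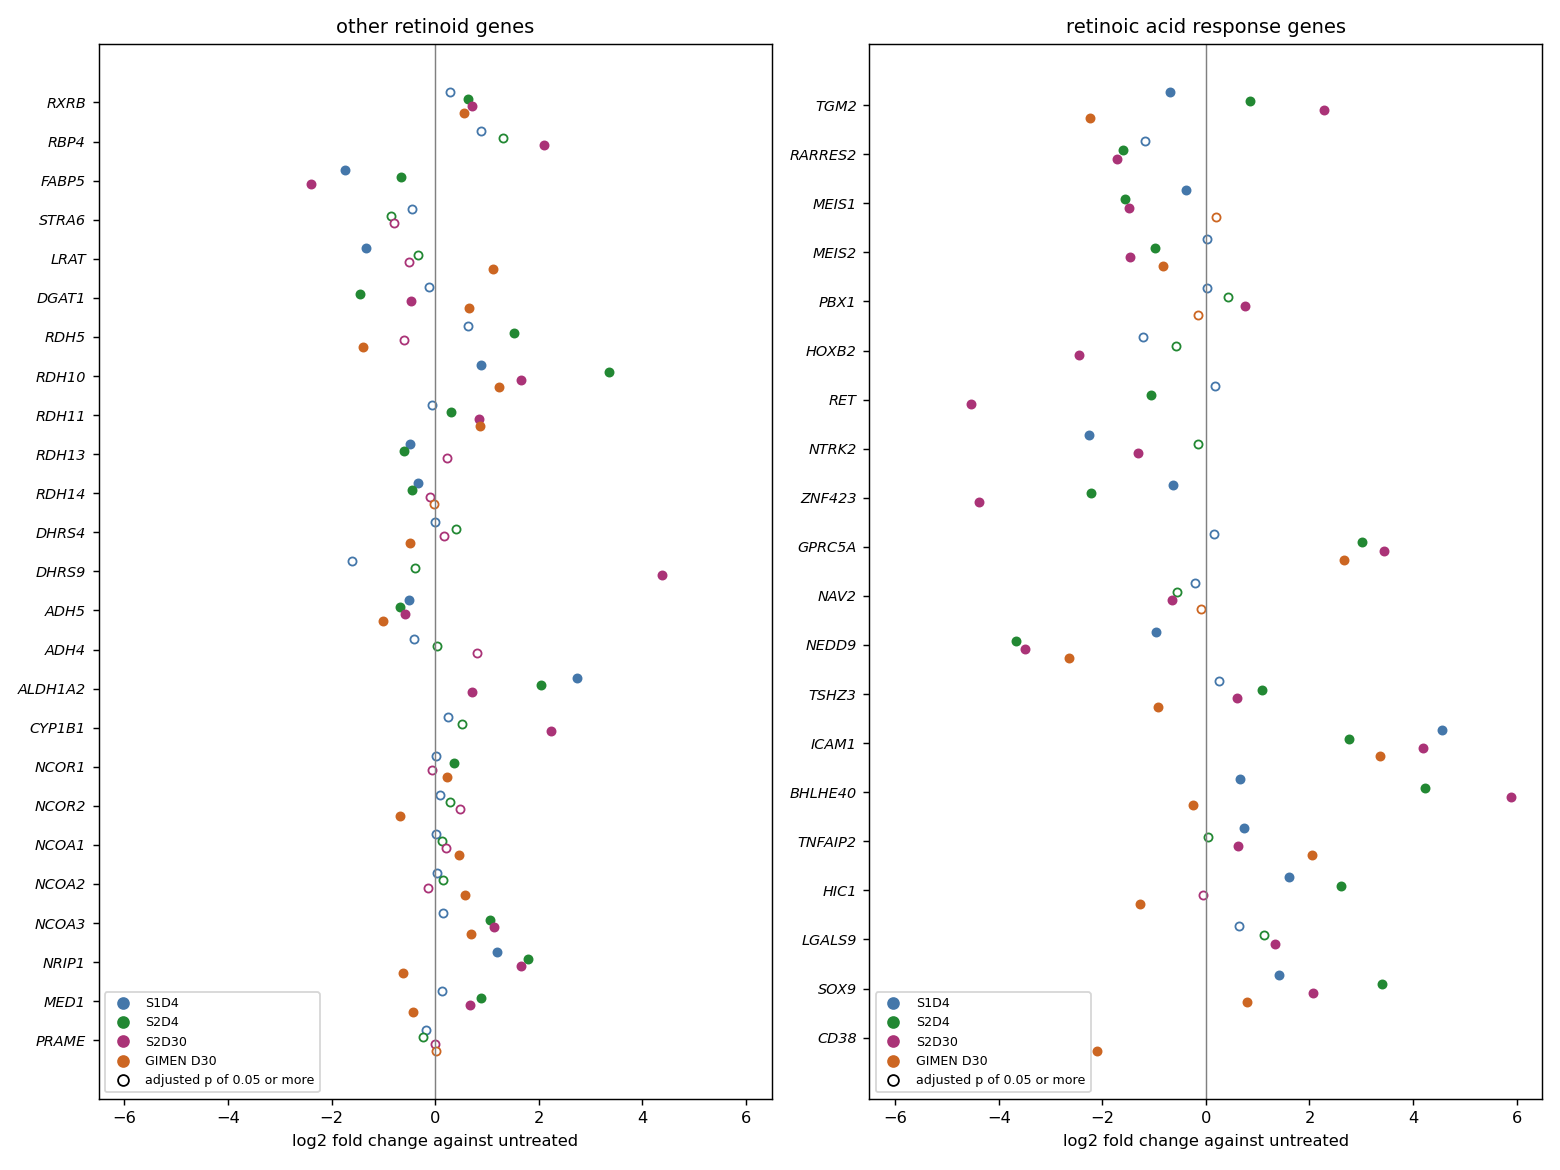
Log2 fold change against untreated cells (x axis) of tested genes of the 2 lists, by comparison, filled where the adjusted p was under 0.05. Points lie on both sides of 0 in both lists, with RDH10 at 3.36 in S2D4 and FABP5 at -2.40 in S2D30 on the left, and BHLHE40 at 5.89 and RET at -4.54 in S2D30 on the right.

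The 3 genes with the widest range between group means were CRABP1, ALDH1A3 and DHRS3, and other genes with the most similar level over the 22 libraries were looked up among 10294 genes. For CRABP1 these included AP3B2 (Pearson r = 0.9937) and HMCN2 (0.9905), with r of 0.9643 and 0.9649 within the 16 SK-N-AS libraries. For ALDH1A3 they were SEPT6 (0.9946), ELAVL4 (0.9877) and CHRNA3 (0.9873), with r between 0.9816 and 0.9934 within SK-N-AS. For DHRS3 they were CHFR (0.9921), NAPRT (0.9915) and UNC93B1 (0.991), with r of 0.5978, 0.4519 and 0.8182 within SK-N-AS, so that the likeness for DHRS3 came mostly from the difference between the lines. The libraries share groups, and these correlations describe the ranking only.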

How the data were processed

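RNA was extracted as total RNA with DNase treatment and sequenced as paired-end libraries, per the labels' protocols. The authors deposited raw counts per gene, 1 column per library. The values were whole numbers with different totals. The aligner, counting tool, genome build, annotation and strand setting are not given in the sources used here. The 10 genes and the lists were chosen with earlier results of these data known. Nothing states that replicates came from separate cultures, so p-values measure only the spread between these libraries.

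The counts went into edgeR 4.0.16 (R 4.3.3, limma 3.58.1) with filterByExpr (minimum count 10), TMM scaling and the quasi-likelihood F-test. Benjamini-Hochberg adjustment ran over all genes of a model, and genes with an adjusted p under 0.05 were called. Models covered 16 SK-N-AS libraries, 6 GIMEN libraries, and 14 untreated and 30-day libraries of both lines. CPM were scaled within each line; 1 scaling of all libraries would change them by a factor of 0.937 to 1.13. The limit for a gene at 0 was 3 counts per library. For correlations, log2 CPM had a prior count of 2. The test was checked on simulated data.

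Besides the 10 genes, the text names, per list and comparison with untreated cells, the 2 largest rises and 2 largest falls among called genes whose mean reached 1 CPM in 1 of the groups. A few genes that these rules pick are not reported here. Marker lists were adrenergic, mesenchymal, Schwann and glial, leukocyte and endothelial. The Schwann and glial sum was at most 9.56 CPM and the endothelial sum at most 26.9 CPM in any library. Exon lengths and overlaps came from GENCODE v29, promoters from RefSeq. Alternatives were DESeq2 1.42.0, its size factors, upper-quartile scaling, other filters, a fold threshold, other model libraries, a replicate block, a term for replicates 3 and 4, and leaving out each library. Those for the listed genes were added after the data were seen.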

Additional observations from a re-analysis of the deposited data

Results flagged for a closer look

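Of 40 groups of 4 libraries, 9 held a library whose distance to its nearest neighbour took most of the group's range. Chance alone gives about 1 in 20 such groups if they are independent and the values normal. These groups are 10 genes in the same 16 SK-N-AS libraries and not independent, so the count of 9 cannot be set against that rate. In S2D4, replicate 4 was the highest library for 6 genes on this measure: RARA at 246.5 CPM, CRABP1 at 385.2 CPM, CRABP2 at 120.1 CPM, CYP26B1 at 6.771 CPM, DHRS3 at 79.25 CPM and ALDH1A3 at 72.54 CPM. In untreated SK-N-AS, replicate 2 was highest for RARA (107.0 CPM) and replicate 3 for RARB (8.403 CPM). In S2D30, replicate 2 was the 1 library with CYP26A1 reads (0.1058 CPM).

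The 30-day log2 change differed between GIMEN and SK-N-AS in the interaction test for RARA (-1.14), RARG (1.25), CRABP2 (2.23), DHRS3 (-3.96) and ALDH1A3 (9.44). The value of ALDH1A3 is set against untreated GIMEN libraries at 0 and depends on the prior count, so it is no measure of size. DHRS3 had at most 1 count in each GIMEN D30 library, and its value was -6.25 without GIMEN D30 replicate 2.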

How the results depend on the processing

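The count of the 10 genes called stayed within 1.5 times of the reported count under all settings but 4. Where a log2 fold change of 1 or more in size was also asked for, it was 3 in S1D4, 5 in S2D4 and 5 between the untreated lines, and without a filter it was 5 in GIMEN D30. Signs turned only for changes near 0 that were not called. RARA in S2D30 against untreated SK-N-AS was 0.0325 with DESeq2, 0.0373 with its size factors, 0.0101 with a mean of at least 10 counts, 0.0223 with no filter, 0.0221 with these groups alone and 0.02 with the term for replicates 3 and 4 (-0.0151 to 0.0204 leaving out 1 library). DHRS3 in S2D30 against S2D4 was 0.0077 with upper-quartile scaling (-0.1315 to 0.1447 leaving out 1 library), and RXRA in GIMEN D30 was 0.0213 (-0.1027 to 0.0347). Leaving out 1 library gave -0.046 to 0.16 for RARB in S1D4 and -0.40 to 0.12 for CYP26B1 in S2D30. The cause was not tested. Replicate numbers are shared between groups, but same-numbered libraries did not deviate together in every pair. A replicate block moved the count of all genes called by a factor of 0.976 to 1.03, and among these 10 genes it changed 1 call, RARA in S1D4 (-0.47, adjusted p = 0.0452, edgeR). Low counts limit CYP26A1, and in GIMEN RARB, CYP26B1, DHRS3 and ALDH1A3.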
